A study of Mus musculus with 56 samples.

Results

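The livers compared here were taken 4 h into the food window at opposite times of the light cycle. The light group was DRF ZT4 (daytime-restricted feeding, zeitgeber time 4, where ZT0 is lights on), and the dark group was NRF ZT16 (nighttime-restricted feeding, ZT16). Their libraries were chosen by the regimen and time in their column names, with no use of measured values. They are 8 of the 56 libraries of the series, 4 per group. All animals were female C57BL/6J mice, aged 9 weeks, under 12 h of light and 12 h of dark, and had spent 7 days on the regimen. NRF was the reference regimen. Each library came from a different animal. Daily food was withheld in the dark under DRF and in the light under NRF, so light and regimen change together in this comparison and cannot be told apart by it. A fasted pair, NRF ZT4 and DRF ZT16, was taken 4 h after the food window had closed, and was used to see which light against dark differences were also present without food. A later fed pair, DRF ZT8 and NRF ZT20, gave the same comparison 4 h later. None of the 3 pairs shares a library with another.

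Feeding time is a strong time cue for the liver. The molecular clock is a feedback loop in which BMAL1 (gene Arntl) and CLOCK drive the Per, Cry and Rev-erb (Nr1d1, Nr1d2) genes, whose products repress the loop in turn, and the output factors DBP, TEF and HLF pass its phase on to metabolic genes. Meals set this loop through insulin and nutrient signals, while the light cycle reaches the liver through the brain's clock, with glucocorticoids, body temperature and the pulses of growth hormone among its signals. A comparison at the same hour of the food window holds hours since food became available constant while light, activity and regimen differ. When the animals ate within the window is not given by the labels.

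Values are given as scaled counts: whole counts were rebuilt from the deposited values and put on a common scale, without correction for length, so that libraries and not genes can be compared. Each group held 4 animals. Differences are given on the log2(scaled count + 1) scale with their standard error, and are called at an adjusted p under 0.05 (limma over all 56 libraries, Benjamini-Hochberg). In bulk liver, fewer cells of a type and less RNA per cell cannot be told apart. Recovered counts in the 8 libraries ranged from 305.7 to 570.7 M (M stands for 1000000). Correlations between replicates across genes were 0.984 to 0.988 in DRF ZT4 and 0.964 to 0.984 in NRF ZT16. NRF ZT16 replicate 3 stood apart. Its mean correlation with its group was 0.966, and 8 genes, among them Rpl12, Rrp12, Rrp15, Rrp1 and Rrp7a, were over 4-fold below every other library of the series. The 7 hepatocyte markers tested summed to 131386 to 141422 scaled counts in DRF ZT4 and 120527 to 177556 in NRF ZT16.

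Of 25381 genes tested, 3721 (14.7%) differed between DRF ZT4 and NRF ZT16, 2250 (8.86%) higher and 1471 (5.8%) lower in the light group. Most differences were small, and 103 genes (0.406%) were called with a difference of at least 2-fold. The groups did not overlap in 4025 genes (15.9%). The split of calls depended on scaling. The share of called genes that were higher was 60.5% as reported, 49.1% under median-of-ratios scaling, 46.2% with the trend on exon length removed and 33.6% on the deposited values. The correlation of each library's deviations with exon length was -0.252 to -0.149 in DRF ZT4 and 0.0439 to 0.217 in NRF ZT16, and its part in the differences was not tested. Without NRF ZT16 replicate 1 the number of calls fell to 2230, and a fit on these 8 libraries alone called 1006 genes, 884 of them shared with the 3721.

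Of the protein-coding genes whose groups did not overlap and that reached a mean of 5, Gsta1 had the largest positive difference. It encodes an alpha-class glutathione transferase that conjugates reactive compounds (chr9:78230656-78242684, plus strand, GRCm38). Its scaled counts were 27, 27.8, 48.8 and 44.1 in DRF ZT4 and 3.38, 10.5, 5.37 and 7.34 in NRF ZT16, with no overlap. The difference was 5.1-fold (log2 difference 2.35 ± 0.62, adjusted p = 0.0078), and the call was not made on the deposited values. Nr0b2, which encodes the bile acid induced repressor SHP, followed (chr4:133553376-133556536, plus strand). Its values were 12.1, 20.1, 10.4 and 9.9 in the light against 3.49, 2.19, 3.83 and 2.08 in the dark, so every light value was over the highest dark one (log2 difference 1.83 ± 0.37, adjusted p = 0.00073). Acot3, a peroxisomal acyl-CoA thioesterase (chr12:84052144-84060402, plus strand), stood at 72.2, 98, 83.5 and 92.6 against 19.6, 30.6, 20.5 and 45.4 (log2 difference 1.62 ± 0.38, adjusted p = 0.0036). Smpd3, neutral sphingomyelinase 2, had 18.1, 25, 18.2 and 20.5 against 5.79, 3.56, 6.46 and 9.88 (log2 difference 1.59 ± 0.30, adjusted p = 0.00035).

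The other named genes higher in the light had smaller differences. Tnfrsf19, a receptor of the tumor necrosis factor receptor family (chr14:60963875-61046490, minus strand), measured 31.4, 35.1, 27 and 30.5 in DRF ZT4 and 9.84, 13.9, 9.92 and 15.9 in NRF ZT16, which is a narrow spread within each group and a wide gap between them (log2 difference 1.28 ± 0.15, adjusted p = 6e-07). Lpl, the lipase that frees fatty acids from circulating triglyceride (chr8:68880491-68907448, plus strand), measured 10.8, 18.2, 12.3 and 14.4 and 4.49, 5.41, 5.34 and 5.42 (log2 difference 1.25 ± 0.17, adjusted p = 6.6e-06). Spry4, an inhibitor of receptor tyrosine kinase signalling, reached 16.3, 32.2, 17.5 and 15.6 in the light and 7.31, 6.25, 5.21 and 6.01 in the dark (log2 difference 1.52 ± 0.27, adjusted p = 0.00025). Dusp6, the phosphatase that switches off ERK, reached 21.8, 25.7, 17.9 and 21.9 and 12.1, 9.28, 8.29 and 7.76 (log2 difference 1.15 ± 0.24, adjusted p = 0.0013). In none of these did the groups overlap, which was a condition for naming them. Tsc22d1 and Eln, which encodes elastin, rose by log2 differences of 1.27 and 1.19. Sycp3 rose by 1.21, and 52% of its exon sequence lies under a gene of the opposite strand. Apoc1, an apolipoprotein, was 1535, 1286, 1599 and 1584 against 460.2, 642, 1284 and 563, so NRF ZT16 replicate 3 lay near the light group (log2 difference 1.14 ± 0.32, adjusted p = 0.012). The Apoc1 call was lost without NRF ZT16 replicate 1, on the deposited values and in the fit on these 8 libraries alone. Rpl12, a ribosomal protein gene, was 23, 18.8, 20.2 and 20.5 against 11.9, 17.2, 0.658 and 18, and its call was lost without NRF ZT16 replicate 3. AW209491 (1.12) lost its call without any of 6 libraries in turn (DRF ZT4 replicates 1, 2 and 4 and NRF ZT16 replicates 2, 3 and 4).

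Among the genes lower in the light, Lpin1 separated the groups widely. It encodes lipin 1, a phosphatidate phosphatase that also coactivates fasting genes (chr12:16535669-16610966, minus strand). Its values were 12.7, 13.9, 12.3 and 16.8 in DRF ZT4 and 42.8, 81.9, 42.8 and 66.5 in NRF ZT16, 3.86-fold lower with no overlap (log2 difference -1.95 ± 0.30, adjusted p = 3.5e-05). Chd9, a chromatin remodelling helicase (chr8:90828352-91054516, plus strand), had 59.3, 70.6, 69.6 and 61.3 in the light and 198, 245, 179 and 186 in the dark (log2 difference -1.61 ± 0.20, adjusted p = 1.2e-06). Zbtb16, the glucocorticoid-inducible transcription factor PLZF (chr9:48654297-48836222, minus strand), had 39.9, 46.9, 42.3 and 58.6 and 169, 293, 120.0 and 90.9 (log2 difference -1.70 ± 0.42, adjusted p = 0.0054). All light values of these genes lay under all dark values, and such a separation was a condition for naming the genes in this paragraph. Smad9, a transcription factor of bone morphogenetic protein signalling, had 7.44, 4.63, 7.39 and 10.7 and 30.5, 22.6, 19.8 and 15.3 (log2 difference -1.44 ± 0.24, adjusted p = 6.8e-05). Klhl24, a kelch-type adaptor of ubiquitin ligases, had 11.3, 15, 13.9 and 13.4 and 27.2, 28.4, 30.7 and 29, again without overlap (log2 difference -1.06 ± 0.18, adjusted p = 9.9e-05). The zinc finger gene Zfp970 (-1.58) and the junctophilin gene Jph1 (-1.12) fell with the same separation. B3galt1, a galactosyltransferase, fell by 1.28, a call that was lost without DRF ZT4 replicate 1 and without NRF ZT16 replicate 1 or 3.

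Serpina1e, Hamp, Slco1a1 and Cyp3a44 were also lower in the light. Serpina1e, an alpha-1-antitrypsin paralog (chr12:103946931-103958975, minus strand), was 326, 229.5, 321 and 193 in DRF ZT4 and 719, 949, 2685 and 880.2 in NRF ZT16, where replicate 3 was the highest (log2 difference -2.11 ± 0.49, adjusted p = 0.0031). Hamp, which encodes the iron hormone hepcidin, was 2495, 296, 1637 and 1258 in the light and 4160.2, 4034, 4068 and 4152 in the dark (log2 difference -1.88 ± 0.40, adjusted p = 0.0012). The dark values lay close together and DRF ZT4 replicate 2 was far below its group. Hamp, Apoc1, Fbp1, Oat, Tdo2, Cyp27a1, Cyp2b13 and Apob were too deep for their rebuilt counts to be judged whole. Slco1a1, an organic anion transporter, was 43, 11.8, 18.6 and 12.7 and 50.8, 44.7, 124 and 51.8 (log2 difference -1.68 ± 0.52, adjusted p = 0.025), and the call was lost without DRF ZT4 replicate 2 or 4 or NRF ZT16 replicate 3. Cyp3a44, a cytochrome P450, was 87, 132, 116 and 124 and 491, 479.9, 215 and 313 (log2 difference -1.64 ± 0.48, adjusted p = 0.016), and was lost without replicate 1 of either group. Major urinary proteins (Mup) carry pheromones, and their genes are regulated by growth hormone. Of 20 Mup genes tested, 5 fell and 0 rose in limma at an adjusted p under 0.05, beside 5.8% and 8.86% of all genes. The median log2 difference was -0.74, with a range of -2.52 to 1.06. Summed Mup counts overlapped, at 5279 to 10256 in DRF ZT4 and 5863 to 15205 in NRF ZT16. Mup15 was 19.6, 52.8, 16.7 and 27.4 against 169, 98.6, 81.1 and 58.5 (log2 difference -1.80 ± 0.46, adjusted p = 0.0064). The Mup, Serpina1, Cyp3a, Cyp2a and Gsta genes have near-identical copies among which counting could split reads, so values of single members are uncertain. Of the other members, 1 of 4 further Serpina1 genes fell, and the families were chosen after the values were seen.

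**Figure D1:**
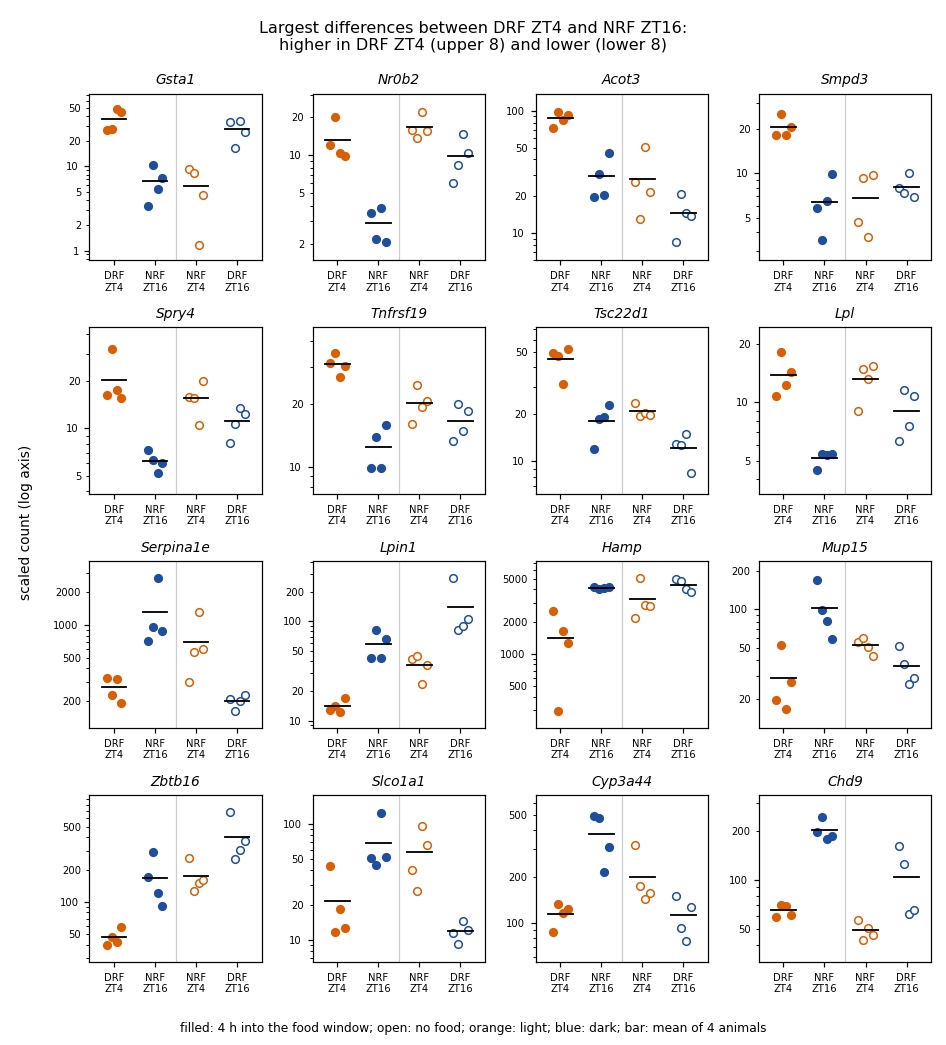
Scaled counts (log axis) of 16 genes, the 8 with the largest positive and the 8 with the largest negative log2 difference among the named genes, in DRF ZT4 and NRF ZT16 (filled points, fed) and in NRF ZT4 and DRF ZT16 (open points, fasted). Each point is 1 animal and each bar the mean of 4. In all 16 panels the filled orange and filled blue points do not overlap, which was a condition for naming these genes. The open points overlap in part of the panels.

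Of 19 clock genes, 17 differed with food and 5 between the fed groups. With food, 11 of 19 clock genes rose and 6 fell (mean of the fed groups minus mean of the fasted groups), beside 10.3% and 11.3% of all genes. The fed and fasted groups also lie at different hours of the feeding cycle. The paper reports a full phase reversal of liver clock genes under DRF. A difference with food, here and below, therefore cannot be told apart from one of clock phase. Between the fed groups 2 were higher and 3 lower in DRF ZT4 than in NRF ZT16, beside 8.86% and 5.8% of all genes, and the median log2 difference was -0.05 beside 0.06 over the 13722 genes with a mean of at least 1. Per2, a repressor of the loop, was 99, 84.7, 91.2 and 94.2 in the light and 108, 105, 93.3 and 79 in the dark, whereas the fasted groups held 9.28, 5, 4.25 and 3.88 (NRF ZT4) and 13.6, 11.6, 11.9 and 11.2 (DRF ZT16). The fed values overlapped and lay far above all fasted ones. The fed log2 difference of Per2 was -0.05 with a 95% interval of -0.57 to 0.47, and the mean of the fed groups exceeded the mean of the fasted groups by 3.39 (adjusted p = 1.4e-18). Per3 had 22.1, 26, 26.1 and 27 against 27.4, 20.8, 24.6 and 20, an interval of -0.27 to 0.52, and a food difference of 2.52. Wee1, a clock-driven kinase of the cell cycle, had 26.3, 27.5, 27.5 and 26.9 against 25.1, 28, 18.5 and 28.4, an interval of -0.18 to 0.44, and a food difference of 2.56. For these genes the interval excluded a light against dark difference of 1.5-fold, as it did for 80.6% of all genes. Wee1 was named because it met this limit and had a large food difference, so both were conditions of its choice.

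Dbp, an output factor, differed most of the 19 between the fed groups (chr7:45705088-45710203, plus strand). It was 10.9, 17, 10.4 and 9.49 in DRF ZT4 and 4.42, 3.82, 7.76 and 2.56 in NRF ZT16, with all light values over all dark ones (log2 difference 1.24 ± 0.21, adjusted p = 0.00012). The call was lost only in the fit on these 8 libraries alone, and 18% of its exon sequence lies under a gene of the opposite strand. Its partners Tef and Hlf were not called (0.10 and 0.13). Arntl was 15.3, 13, 19.96 and 22.8 against 28.2, 29.7, 32 and 42.1 (log2 difference -0.87 ± 0.19, adjusted p = 0.0015), likewise lost in that fit. Clock, its partner (chr5:76209868-76304792, minus strand), was 47.6, 47.5, 51.8 and 71.9 against 85.3, 97.8, 96.2 and 101.0 (log2 difference -0.80 ± 0.16, adjusted p = 0.00048), and kept its call under all 16 alternatives. Both activator genes were thus lower in the light group, with no overlap. Nr1d1, the repressor REV-ERB alpha, was 7.63, 11, 6.18 and 6.81 against 3.19, 3.5, 6.49 and 1.83, where NRF ZT16 replicate 3 overlapped the light group (log2 difference 0.96 ± 0.31, adjusted p = 0.03). That call was lost without DRF ZT4 replicate 1 or 2 or NRF ZT16 replicate 1, 2 or 4. Rora, an activator at the sites REV-ERB binds, fell by 0.29, a call lost with the length trend removed. Per1 (-0.56, 95% interval -1.11 to -0.01) and Cry1 (-0.35, -0.74 to 0.05) were not called, and both intervals reached past a 1.5-fold difference. Npas2, a stand-in for CLOCK, was 0.443, 0.434, 0.297 and 0.456 against 0.113, 0.143, 0.112 and 0.179, without overlap but below the pseudocount of 1, and was called only with a smaller one of 0.1, on the deposited values and in the fit on these 8 libraries.

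**Figure D2:**
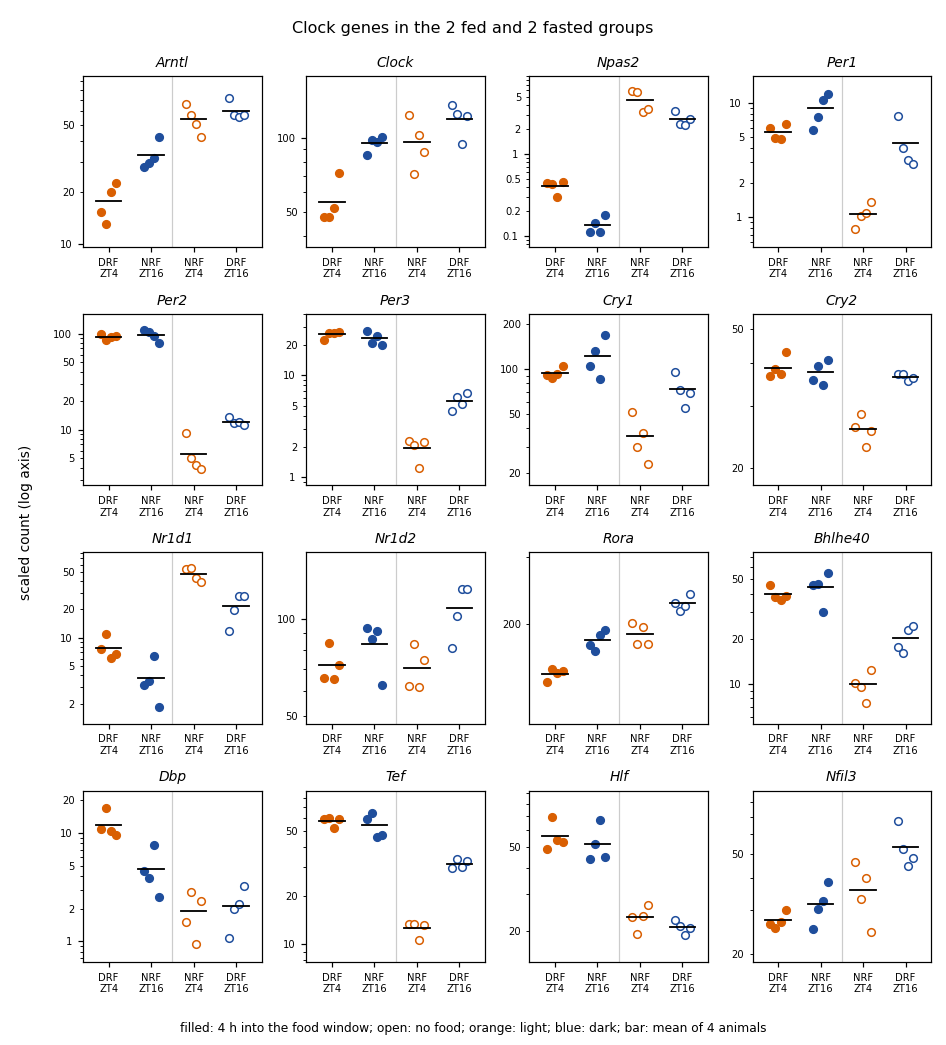
Scaled counts (log axis) of 16 clock genes in the fed groups DRF ZT4 and NRF ZT16 (filled) and the fasted groups NRF ZT4 and DRF ZT16 (open), with 1 point per animal and a bar at the mean of 4. Per2 and Per3 lie at similar levels in both fed groups and far lower in both fasted groups. Tef is also similar in both fed groups, far lower in fasted NRF ZT4 and less so in fasted DRF ZT16. Arntl, Clock and Dbp are apart between the fed groups.

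Promoters were searched because the clock, heat shock, glucocorticoid and immediate early genes are targets of known factors. Of 12 called members of those lists, 10 had a RefSeq promoter entry (GRCm38.p6), and 250 bases upstream of each start were searched on both strands for an E-box (CACGTG), a D-box (TTATGTAA), a RORE core (AGGTCA), a heat shock element (GAANNTTC) and the palindromic glucocorticoid response element. Only Clock held a match, a RORE core, in at least 1 of its 3 annotated starts. Of 32851 promoter windows of that length, 14% held AGGTCA, 6.02% an E-box, 0.819% a D-box, 6.69% a heat shock element and 0.00913% a glucocorticoid element. A window of Clock that carries a match is shown (chr5:76303503-76303752, minus strand). The core is in capitals, read here from the opposite strand as TGACCT. This window lies inside the gene span given above (chr5:76209868-76304792), downstream of the outermost start. It belongs to an internal annotated start, and whether that start is used in liver was not tested.
Clock promoter: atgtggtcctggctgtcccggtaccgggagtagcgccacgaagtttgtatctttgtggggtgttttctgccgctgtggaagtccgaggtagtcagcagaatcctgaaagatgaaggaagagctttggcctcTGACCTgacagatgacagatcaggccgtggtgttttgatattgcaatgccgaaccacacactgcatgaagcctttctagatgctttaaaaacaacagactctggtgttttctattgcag

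Of 15 genes known to be induced by glucocorticoids, 3 were lower in the light, beside 5.8% of all genes, and 0 higher in limma (7 lower and 0 higher at an unadjusted p under 0.05), with a median of -0.55. These were Zbtb16, Sds and Klf9. Sds, the serine dehydratase that feeds gluconeogenesis, had 34.3, 30.2, 27.5 and 35.2 in DRF ZT4 and 59.4, 91, 41.7 and 57.9 in NRF ZT16 (log2 difference -0.91 ± 0.21, adjusted p = 0.0034), and 30% of its exon sequence lies under an opposite-strand gene. Klf9, a steroid-responsive transcription factor, had 8.26, 9.77, 9.25 and 10.6 and 11.8, 15.3, 13.5 and 17.3 (log2 difference -0.55 ± 0.15, adjusted p = 0.009). None of the 3 overlapped between groups. The Sds and Klf9 calls were lost in the fit on these 8 libraries alone, and that of Zbtb16 was kept. Among 13 immediate early and SRF target genes, 3 were higher, beside 8.86% of all genes, and 0 lower in limma (4 higher and 0 lower unadjusted). On the deposited values and in the fit on these 8 libraries alone, 1 was higher. Atf3, a stress-induced repressor, had 29.4, 19.99, 20.2 and 17.4 and 14.5, 10.6, 6.59 and 9.07 (log2 difference 1.05 ± 0.32, adjusted p = 0.024), and was lost without DRF ZT4 replicate 1 or NRF ZT16 replicate 3. Jund (0.58) and Srf (0.39) rose less, and Srf was lost without NRF ZT16 replicate 1. In Jund, 53% of the exon sequence lies under an opposite-strand gene.

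Chaperone genes differed with food in most members and between the fed groups in few. Of 19 heat shock genes, 0 were higher and 1 was lower in the light in limma (2 and 3 unadjusted), whereas 17 of the 19 were higher in the mean of the fed groups than in the mean of the fasted groups, beside 10.3% of all genes. The fed mean and the light against dark difference share libraries. Dnaja1, a co-chaperone of HSP70, was 152, 148, 151 and 179.9 in DRF ZT4 and 143, 167, 144 and 136 in NRF ZT16, with 52.5, 34.5, 56.8 and 34.4 in fasted NRF ZT4 and 65.7, 62.3, 57.8 and 58.3 in fasted DRF ZT16. The fed interval was -0.20 to 0.39 and the food difference 1.55, and Dnaja1 was named because of these 2 properties. Hspa4l, an HSP110-type exchange factor, was the gene lower in the light (log2 difference -0.47 ± 0.12, adjusted p = 0.0045). Of 18 chaperones of the endoplasmic reticulum, 0 were called between the fed groups in limma (4 higher and 1 lower unadjusted) and 16 rose with food. Hspa5, the chaperone BiP, was 263, 229.8, 204 and 229 against 109, 123, 289.6 and 116, with NRF ZT16 replicate 3 above the light group, and without that library 6 of the 18 were higher in the light. The cold-inducible RNA-binding protein gene Cirbp was not called (0.26, 95% interval -0.13 to 0.65).

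Of 18 ribosome biogenesis genes, 5 were higher in the light, beside 8.86% of all genes, and 0 lower in limma (7 and 0 unadjusted). On the deposited values, with the length trend removed or without NRF ZT16 replicate 1, 2 were higher, and all 5 calls were lost in the fit on these 8 libraries alone. Rrp9, which processes ribosomal RNA with the U3 particle, had 3.64, 3.43, 3.39 and 3.74 in DRF ZT4 and 1.73, 2.05, 0.737 and 2.64 in NRF ZT16 (log2 difference 0.76 ± 0.13, adjusted p = 0.00012). The methyltransferase gene Nop2 rose by 0.52, a call lost without NRF ZT16 replicate 3. In the integrated stress response, 3 of 15 rose, beside 8.86% of all genes, and 0 fell in limma (5 and 0 unadjusted). On the deposited values 1 rose and 1 fell, and in the fit on these 8 libraries alone 1 rose. Vldlr, the very low density lipoprotein receptor, had 11.7, 12.2, 12.4 and 14.9 against 7.6, 7.8, 6.16 and 8.43 without overlap (log2 difference 0.70 ± 0.20, adjusted p = 0.013), and its call was lost on the deposited values. Sesn2, a stress-induced inhibitor of mTORC1, rose by 0.55, a call lost in the fit on these 8 libraries alone, and Atf5 by 0.61, and the Atf5 call was lost without any of 5 libraries in turn, DRF ZT4 replicates 1, 2 and 4 and NRF ZT16 replicates 1 and 2.

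Lists of lipid, glucose and amino acid metabolism held 0 to 3 calls each between the fed groups. The share called was 18.2% in gluconeogenesis and 17.6% in amino acid breakdown, beside 14.7% of all genes. It was 0% in lipogenesis, 4.76% in fatty acid oxidation and 9.52% in the sterol list. Of 13 lipogenesis genes, 0 were called in limma (2 higher and 1 lower unadjusted), and the median was 0.22. Mlxipl, the carbohydrate sensor ChREBP, came nearest (log2 difference -0.43 ± 0.16, adjusted p = 0.055) and was called without NRF ZT16 replicate 2 or 4. Of 21 sterol genes, Mvk rose (0.74) and Insig1 fell (-0.52). Both calls were lost without DRF ZT4 replicate 4 and without NRF ZT16 replicate 1, and Insig1 also without DRF ZT4 replicate 2 or 3 or NRF ZT16 replicate 2 or 4. Of 21 genes of fatty acid oxidation and PPARA targets, 1 rose and 0 fell (7 and 0 unadjusted). This was Plin2, a lipid droplet coat protein, with 249, 279, 258 and 249 in DRF ZT4 and 123, 131, 105 and 178 in NRF ZT16 (log2 difference 0.97 ± 0.23, adjusted p = 0.0037). Of 11 gluconeogenesis genes, Fbp1 rose (0.44) and Crem fell (-0.38). The Fbp1 call was lost on the deposited values (adjusted p = 0.926 in limma) and in the fit on these 8 libraries alone, as were all calls of the sterol and amino acid lists in that fit. Of 17 genes of amino acid breakdown and the urea cycle, 1 rose and 2 fell. Oat, ornithine aminotransferase, had 1274, 1727, 1319 and 1648 and 731, 1091, 770.0 and 1257 (log2 difference 0.66 ± 0.20, adjusted p = 0.019), a call lost without DRF ZT4 replicate 2 or 4 or NRF ZT16 replicate 1 or 3. Tdo2, which opens tryptophan breakdown, fell by 0.47 with Sds, a call lost without DRF ZT4 replicate 1, 3 or 4 or NRF ZT16 replicate 2.

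In bile acid metabolism, 2 of 14 genes rose and 2 fell, beside 8.86% and 5.8% of all genes. The same shares stand beside the counts of the other lists in this paragraph. Beside Nr0b2, Cyp8b1, the sterol 12-alpha-hydroxylase that shapes the bile acid pool, had 64.6, 39.99, 54.2 and 56.3 in DRF ZT4 and 17.1, 33.6, 37.7 and 34.7 in NRF ZT16 (log2 difference 0.82 ± 0.23, adjusted p = 0.012), a call lost without replicate 1 of either group. Cyp27a1, an enzyme of the alternative route, fell by 0.46 with Slco1a1. Of 20 drug metabolism genes, 3 rose and 3 fell (4 higher and 7 lower unadjusted). Gstm3 rose by 0.97 and Cyp2b13 by 0.66, and Cyp2a4 fell by 0.99. The Gstm3 call was lost without any of 5 libraries in turn (DRF ZT4 replicates 1, 3 and 4, NRF ZT16 replicates 1 and 3) and that of Cyp2b13 without NRF ZT16 replicate 1 or 2. Cyp1a1, the classic target of the aryl hydrocarbon receptor, had 2.94, 1.72, 2.57 and 3.76 against 1.39, 33.4, 1.46 and 39.3. Its dark animals split into a high and a low pair, the low pair under every light value, so the call (log2 difference -1.37) rested on NRF ZT16 replicates 2 and 4 and was lost without either, and also without DRF ZT4 replicate 1, 2 or 3. Of 10 growth hormone regulated genes higher in male liver 2 fell, of 9 higher in female liver 1 rose and 1 fell, and of 9 genes of the growth hormone and IGF axis 0 were called in limma (0 higher and 2 lower unadjusted). Of 18 acute phase genes, Hamp alone was called (0 higher and 4 lower unadjusted). Of 12 cell cycle genes, Ccnb2 rose (0.72), a call lost without DRF ZT4 replicate 1 or 3 or NRF ZT16 replicate 1.

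**Figure D3:**
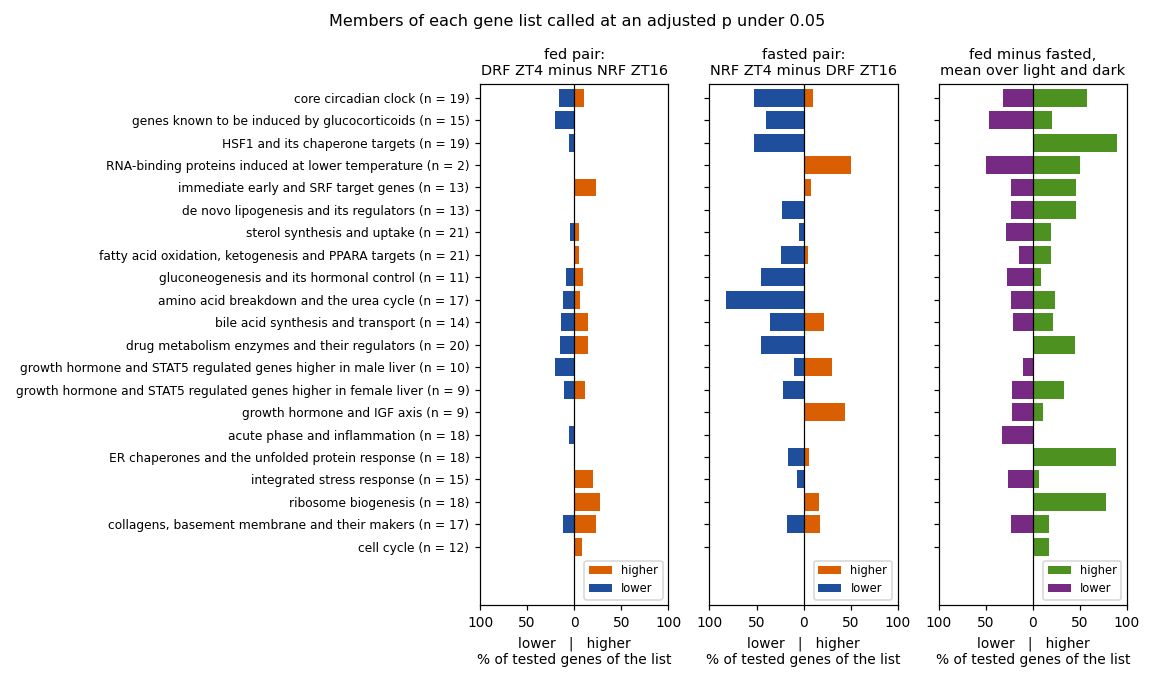
Percent of the tested genes of each list that were called higher (bars to the right) or lower (bars to the left) in the fed pair (DRF ZT4 minus NRF ZT16), in the fasted pair (NRF ZT4 minus DRF ZT16) and with food (mean of the fed groups minus mean of the fasted groups), with the number tested in parentheses. Cell type marker lists are not drawn. In the fed pair the longest bar is that of ribosome biogenesis (5 of 18 higher), while with food the heat shock bar reaches 17 of 19 and the endoplasmic reticulum chaperone bar 16 of 18.

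Of 17 genes for collagens, basement membrane and their makers, 4 were higher and 2 lower in the light, beside 8.86% and 5.8% of all genes, and 11 were not called. The median log2 difference was 0.17. On the deposited values and in the fit on these 8 libraries alone, 2 were higher and 2 lower. Col4a1, a chain of basement membrane collagen (chr8:11198423-11312826, minus strand), was 195, 183, 179 and 217 in DRF ZT4 and 89.6, 114, 104 and 112 in NRF ZT16 (log2 difference 0.88 ± 0.11, adjusted p = 1.4e-06). Col4a2, its partner chain, rose by 0.88 and Col5a1 by 0.44. Timp3, a matrix-bound inhibitor of metalloproteinases (chr10:86300372-86349506, plus strand), was 17.4, 14.5, 14.9 and 17.5 against 29, 34.8, 29.2 and 30.8 (log2 difference -0.90 ± 0.08, adjusted p = 2.3e-10), and 21% of its exon sequence lies under an opposite-strand gene. The fasted pair gave the same picture for both. Col4a1 was 170.0, 218, 213 and 234 in NRF ZT4 and 129.6, 132, 117 and 124 in DRF ZT16 (log2 difference 0.72, adjusted p = 9.6e-06), and Timp3 was 14.5, 15.9, 12.7 and 13 and 30.5, 27.5, 27.5 and 26.5 (-0.95, adjusted p = 3.8e-11). Col4a1 was thus higher and Timp3 lower in the light in both pairs, which have opposite regimens, although DRF ZT8 and NRF ZT20 gave no call in either (0.20 and 0.04).

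Across all genes, 4362 (17.2%) differed between light and dark in the fasted pair. Of these, 969 were also called in the fed pair with the same sign, which is 26% of the fed and 22.2% of the fasted calls and 3.82% of all genes. Kitl, the ligand of the KIT receptor, was 12.9, 11, 10.4 and 12.2 (DRF ZT4) and 22.9, 29.8, 17.4 and 29.9 (NRF ZT16) when fed, and 7.39, 12.1, 13.1 and 8.85 (NRF ZT4) and 24.1, 20.5, 22.9 and 21.4 (DRF ZT16) when fasted. The light values were lower at both, by log2 differences of -1.01 and -1.06. Slc7a8, an amino acid transporter, was higher in the light at both (0.88 and 1.07), with 17.9, 23.7, 16.4 and 20.8 against 8.42, 8.18, 13.1 and 11.6 when fed. Lpin1 fell by 1.95 and 1.75, Chd9 by 1.61 and 0.95, and Upp2, a uridine phosphorylase, by 1.01 and 1.43. Fam222a (-0.98 and -1.04) and Sds (-0.91 and -1.47) moved alike. Syt9, a calcium sensor of vesicle release, rose by 0.88 and 1.23, Creb3l1, a membrane-bound transcription factor, by 0.88 and 1.09, and the stellate cell marker Ngfr by 0.89 and 0.86. Plin2 (0.97 and 0.83) and Eln (1.19 and 0.77) were also higher in both, as were Tsc22d1 (1.27 and 0.74), Lpl (1.25 and 0.50), Sycp3 (1.21 and 0.56) and Nr1d1 (0.96 and 1.15).

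**Figure D4:**
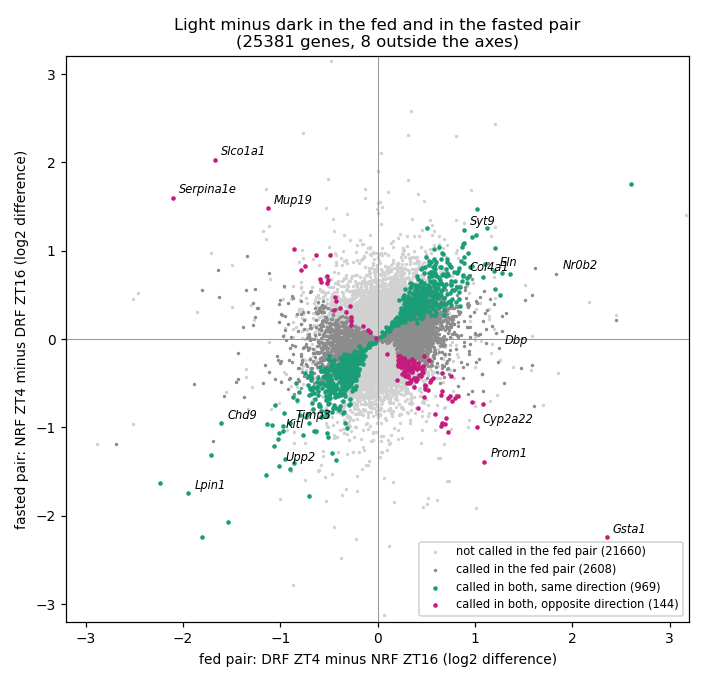
Log2 difference between light and dark in the fasted pair (NRF ZT4 minus DRF ZT16, vertical) against that in the fed pair (DRF ZT4 minus NRF ZT16, horizontal) for 25381 genes, 8 of them outside the axes. Green points are the 969 genes called in both with the same sign, and magenta points the 144 called in both with opposite signs, among them Gsta1, Serpina1e and Slco1a1 near the corners.

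Another 144 genes (0.567%) were called in both pairs with opposite signs, which is 3.87% of the fed and 3.3% of the fasted calls. In these genes the order of the regimens, and not of light and dark, was the same in both pairs. Gsta1 was 9.41, 8.39, 1.15 and 4.57 in fasted NRF ZT4 and 33.6, 16.6, 35 and 25.7 in fasted DRF ZT16, so both DRF groups were above both NRF groups. The fed and fasted differences of Gsta1 themselves differed by 4.59 ± 0.87 (adjusted p = 0.00098). Serpina1e (-2.11 fed, 1.60 fasted), Slco1a1 (-1.68, 2.03) and Mup19 (-1.13, 1.48) were lower under DRF at both times. Prom1, a membrane protein of progenitor and bile duct cells, was 34.2, 34.2, 50.4 and 49.4 against 21.1, 17, 16.3 and 21.3 when fed and 19.5, 19.1, 7.52 and 11.2 (NRF) against 38.9, 26.9, 47.6 and 36 (DRF) when fasted. The lowest DRF value of Prom1 was over the highest NRF value. Retsat, which saturates retinol, was higher under DRF by 0.72 when fed, and its fasted light minus dark difference was -1.05. Cyp2a22 (1.02, -0.999), the actin bundler Pls1 (1.08, -0.73) and the transporter Slc16a5 (0.97, -0.71) had the same order. Of the genes lower in the fed light group, Hsd17b6, Phf21a and Rsbn1 had smaller differences (-0.58, -0.44 and -0.42) and each lost its call without any of at least 6 of the 8 libraries in turn. The 144 became 69 without DRF ZT4 replicate 4, 60 without NRF ZT16 replicate 1, 90 without its replicate 3, 246 without its replicate 4 and 50 on the deposited values.

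**Figure D5:**
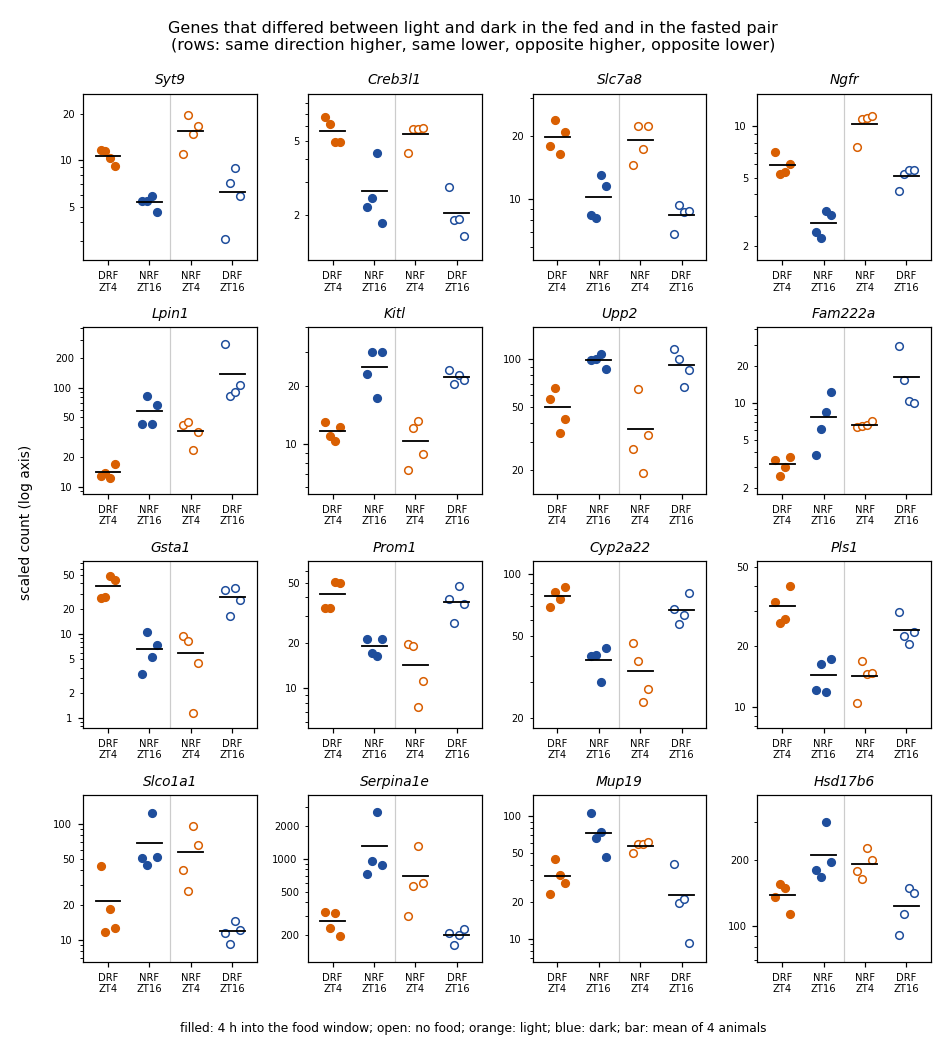
Scaled counts (log axis) of 16 genes called between light and dark in both the fed pair (filled points) and the fasted pair (open points), with 1 point per animal and a bar at the mean of 4. In the upper 2 rows orange (light) stands on the same side of blue (dark) in both pairs, and in the lower 2 rows the side changes.

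The light against dark difference was then tested between the fed and the fasted pair. This contrast equals DRF minus NRF summed over both times, so it cannot tell dependence on food from a difference between regimens. It called 1940 genes (7.64%), 1248 (4.92%) with a more positive and 692 (2.73%) with a more negative difference when fed. It called 1129 without NRF ZT16 replicate 1, 1207 without its replicate 3, 1210 without DRF ZT4 replicate 4 and 3263 without NRF ZT16 replicate 4. Of 17 genes of amino acid breakdown, 9 were called, all more positive when fed. In that list 0 genes were higher and 14 of 17 were lower in the light when fasted, beside 9.43% of all genes, against 1 and 2 when fed. Of 20 drug metabolism genes 8 were more positive and 1 more negative, and of 19 heat shock genes 5 were more positive. Oat was 1303, 1197, 853 and 613 in fasted NRF ZT4 and 2037, 1617, 1812 and 1913 in fasted DRF ZT16, the reverse of its fed order (1.61 ± 0.28, adjusted p = 0.00037). In the clock, Dbp (1.35), Per3 (1.30), Tef (1.35) and Cry2 (0.53) were called. Tef was 13.4, 13.4, 10.7 and 13.2 in fasted NRF ZT4 and 29.6, 33.5, 30.1 and 32.6 in fasted DRF ZT16, which did not overlap, while its fed values of 59.5, 60.5, 52.1 and 59.2 and 59.3, 64.8, 46.1 and 47.4 did.

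The same contrast 4 h later, DRF ZT8 against NRF ZT20, called 2936 genes (11.6%), 1641 (6.47%) higher and 1295 (5.1%) lower in the light, and 1762 without NRF ZT20 replicate 1 or 1947 without DRF ZT8 replicate 1. Of the 3721 genes called at 4 h, 892 (3.51% of all genes) were called with the same sign at 8 h. These were 24% of the earlier and 30.4% of the later calls, and numbered 512 without NRF ZT20 replicate 1. With the opposite sign, 62 genes (0.244% of all genes) were called. Dbp was again higher in the light, at 4.81, 4.24, 5.34 and 4.98 against 1.25, 1.09, 1.09 and 1.45 (log2 difference 1.40 ± 0.21, adjusted p = 3.6e-05). Tnfrsf19 (1.05), Acot3 (1.12) and Sycp3 (1.36) stayed higher and Serpina1e (-2.38), Cyp3a44 (-1.95), Chd9 (-0.78) and Clock (-0.66) lower. Others turned. Klhl24 was 51.1, 61.4, 40.7 and 47.9 in DRF ZT8 and 32.4, 21.9, 33.2 and 37.5 in NRF ZT20, now higher in the light (log2 difference 0.68 ± 0.18, adjusted p = 0.0093). Eln (-0.55), Dusp6 (-0.89) and Atf3 (-1.38) went from higher to lower, and Sds (1.02), Upp2 (0.99) and Cyp1a1 (1.45) from lower to higher. Lpin1 (0.82, adjusted p = 0.066) and Nr0b2 (0.00) were not called at 8 h, and Per2, level at 4 h, was lower in the light (-1.16).

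The mean of the fed groups and that of the fasted groups differed in 5486 genes (21.6%), and for 4366 of them (17.2% of all genes) the 95% interval of the fed light against dark difference lay within 1.5-fold. Over all genes that interval lay within 1.5-fold in 80.6%, which includes many genes of low value. Ndrg1, a stress and hypoxia responsive gene (chr15:66929318-66969640, minus strand), was 10.01, 9.62, 10.01 and 12.2 in DRF ZT4 and 8.53, 11.8, 10.9 and 13.6 in NRF ZT16, and 71.1, 55.8, 103 and 87.8 and 31.2, 39.5, 43.7 and 35.4 in fasted NRF ZT4 and DRF ZT16. Its food difference was -2.22, its fed light against dark difference -0.08 (95% interval -0.46 to 0.30). Per2, Wee1, Per3, Dnaja1 and the desmosomal protein gene Ppl (1.45) were among the matched genes that rose most with food. Ndrg1, the kinase gene Camk1d (-1.82), Eps8l2 (-1.66), the phosphatase gene Acpp (-1.48), St5 (-1.37) and the ubiquitin ligase gene Rnf144a (-1.22) fell most.

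Markers of other liver cells were counted beside the 14.7% of all genes called between the fed groups. Of 10 endothelial markers 0 were called in limma (0 higher and 1 lower unadjusted), and their summed scaled counts were 624 to 674 in DRF ZT4 and 598 to 749 in NRF ZT16. Of 11 Kupffer cell markers 2 (18.2%) rose, Cd5l (0.51) and C1qc (0.47), with sums of 738 to 1052 and 638 to 863. The Kupffer list had a median of 0.30, with 10 of 11 positive and 6 higher at an unadjusted p under 0.05. Of 10 stellate cell markers 2 (20%) rose, Ngfr (0.89) and Pdgfrb (0.36), while the list's sum was 761 to 836 in the light and 852 to 973 in the dark. On the deposited values 1 stellate marker rose and 4 fell. The part of stellate cells in the collagen genes was not tested. Of 6 erythroid markers 2 (33.3%) rose and 5 were higher at an unadjusted p under 0.05, with a list median of 0.71. Hba-a1, an alpha globin, was 920.5, 991, 447 and 759.7 against 345, 356, 411 and 461, which overlapped (log2 difference 0.93 ± 0.32, adjusted p = 0.042), and the erythroid sum was 919 to 1911 against 718 to 1119.8. Alas2, which makes heme in red cells, rose by 0.64. Of 7 hepatocyte markers Apob fell (-0.53). The calls of Cd5l, C1qc, Pdgfrb, Hba-a1, Alas2 and Apob were all lost without NRF ZT16 replicate 1, among other libraries. Those of Cd5l, C1qc, Hba-a1 and Alas2 were also lost on the deposited values and with the length trend removed. Cd5l and Hba-a1 lost theirs under median-of-ratios scaling too. Across the alternatives the list median fell as low as 0.026 for Kupffer and 0.11 for erythroid markers. Of the 6 cholangiocyte, 7 lymphocyte and 2 pancreas markers tested, 0 were called in limma (0, 0 and 0 unadjusted), and summed levels stayed at 1.8 to 3.1 and 1.48 to 2.13 for lymphocytes and at 1.85 to 2.6 and 2.07 to 3.18 for pancreas. Of 4 neutrophil markers Retnlg rose (0.20), with sums of 0.715 to 1.17 and 0.302 to 1.08, and of 2 adipocyte markers Cidec rose (0.45), with sums of 1.68 to 2.18 and 0.858 to 1.33. The defining markers Adipoq and Plin1 of fat and Prss2 and Cpa1 of pancreas have no value among the genes tested.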

How the data were processed

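Livers of 56 mice were profiled by RNA sequencing. Ribosomal RNA was depleted and libraries were strand-specific and paired-end per the protocol text, while the molecule label says polyA RNA. The submitters' processing notes list CASAVA 1.8, featureCounts 1.5.0-p3 and the builds mm10 and GRCm38.p6. The aligner, and whether counting used strand, are not given in the sources used here. Reads of a gene and of one overlapping it on the other strand therefore cannot be told apart.

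The authors deposited gene values named TPM that are not linear in reads, and they were treated as a score: a value multiplied by the gene's exon length equals a·ln(1 + f·k), where a and f are constants of the library and k is a whole count. Counts k were recovered from this curve and multiplied by f to give scaled counts. On genes left out of the fit, 98.9% of low values lay within 0.05 of a whole number. Of 25415 gene rows, 25381 were tested and 34 were left out. Recovered counts exceed any likely number of reads, so they are not called reads, and the spread between animals sets the precision.

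The planned tests assumed linear values and were applied to log2(scaled count + 1), a scale that understates the change of low genes. A limma model (eBayes with trend, 14 group means, all 56 libraries, 42 residual degrees of freedom) gave each difference, with Benjamini-Hochberg adjustment over 25381 genes and a threshold of 0.05. The fit was tested on simulated data. Columns of no sample numbered 0.

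The genes named were the 15 per direction with the largest difference among called protein-coding genes without overlap and with a mean of at least 5, all clock genes, up to 4 called members of each other list (else the one with the smallest p), and 6 per direction of those shared with the fasted pair or matched between the fed groups. The comparison, the lists and this rule were chosen with earlier results of these data known, and gene families (Mup and others) after the values were seen. A gene that the rule names is not reported here by itself. A symbol that stood in more than 1 row was taken from the row with the highest mean. Alternatives were the deposited values, a pseudocount of 0.1, filters on low values, median-of-ratios scaling, removal of the exon length trend, a replicate block, a fit on the compared groups alone and leaving out each library in turn. R 4.3.3, limma 3.58.1, Python 3.11.15, numpy 2.4.6, pandas 2.3.3, SciPy 1.17.1 and matplotlib 3.10.9 were used.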

Additional observations from a re-analysis of the deposited data

Results flagged for a closer look

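In single groups of 4, the most distant library lay far from the others, measured as its gap to the nearest library divided by the range of the group (above the 95% critical value of Dixon for 4 samples, which chance passes in about 1 in 20 groups). In NRF ZT16 the highest library stood off in AW209491 (0.941), Tdo2 (0.933), Hspa5 (0.922), Slco1a1 (0.91), Serpina1e (0.883), Ccnb2 (0.882) and Gar1 (0.858), and the lowest in Ciart (0.933) and Lpl (0.911). In DRF ZT4 the highest stood off in Ghr (0.897), Dnaja1 (0.895), Spry4 (0.885), Ndrg1 (0.845) and Gar1 (0.844), and the lowest in Npas2 (0.865) and Tef (0.845).

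The light against dark difference was tested against its fasted counterpart, and differed on the log2 scale (limma, adjusted p under 0.05) in 22 of the genes named from the largest differences, the clock and the shared calls. It was more positive when fed in Gsta1 (4.59), Prom1 (2.48), Cyp2a22 (2.02), Smpd3 (1.88), Pls1 (1.81), Retsat (1.77), Slc16a5 (1.68), Dbp (1.35), Tef (1.35), Per3 (1.3), Tnfrsf19 (1.01), Lpl (0.75) and Cry2 (0.535). It was more negative when fed in Serpina1e (-3.71), Slco1a1 (-3.71), Mup19 (-2.61), Cyp3a44 (-2.42), Mup15 (-2.36), Smad9 (-1.28), Hsd17b6 (-1.23), Phf21a (-0.911) and Rsbn1 (-0.86). Genes chosen for opposite signs in both pairs had to differ in this test, which adds nothing to their choice. The test equals DRF minus NRF summed over both times, so it cannot tell dependence on food from a difference between regimens.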

How the results depend on the processing

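No called difference of a named gene reversed under the alternatives run. The fed comparison (3721 calls) gave 1006 in a fit on its 8 libraries alone and 2230 (without NRF ZT16 replicate 1) to 4338 (without its replicate 4) when single libraries were left out. The later fed comparison (2936) gave 1797 in a fit on its libraries alone and 1762 to 2942 without single libraries. The test of the fed against the fasted difference (1940) gave 945 on the deposited values, 735 in a fit on its libraries alone and 1129 to 3263 without single libraries. The fasted comparison (4362) gave 3207 to 4167 and the food comparison (5486) 5053 to 5491 without single libraries. Fewer residual degrees of freedom enter the fits on the compared groups alone, and the cause of the other shifts was not tested.

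Of 119 named genes 88 were called in the fed pair, and 32 of these kept their call under each of 16 alternatives. On the deposited values 62 of the 88 kept it, with the length trend removed 70, under median-of-ratios scaling 85, in the fit on the 8 libraries alone 41, and without single libraries 60 (NRF ZT16 replicate 1) to 82 (NRF ZT16 replicate 4). Dropping the filter on low values changed nothing, since it had removed 0 genes.

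With the replicate block 3822 genes were called and Mup17, Insig1 and Hsd17b6 lost their calls. The labels tie no replicate number to a shared litter or day. Deviations of same-numbered DRF ZT4 and NRF ZT16 libraries correlated at 0.00878, 0.0163, 0.0394 and 0.167. Those of differently numbered libraries correlated at -0.0758 to 0.0745. Whether animals of the same number share a factor cannot be told from these values.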
